A study of Rattus norvegicus with 12 samples.

Results

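The genes described here encode 9 core proteins of synaptic vesicle fusion: Stx1a, Snap25, Vamp1, Vamp2, Syt1, Syt2, Syn1, Syn2 and Cplx1. They were found by name among the 34525 genes of the deposited table, and each name occurred on 1 entry. All 9 passed the filter of a mean of at least 1 FPKM (fragments scaled by gene length and library size, a level set per gene length) in every comparison.

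Neurotransmitter is released when a synaptic vesicle fuses with the presynaptic membrane. A vesicle protein of the VAMP family, also called synaptobrevin, zips together with syntaxin 1 and SNAP-25 on the target membrane into a SNARE bundle that pulls the membranes together. Complexin binds this bundle and synaptotagmin triggers fusion when calcium enters, while synapsins hold the reserve of vesicles near the release site. In rodents Vamp2 and Syt1 are known as the main forms of the forebrain, and Vamp1 and Syt2 are known as prominent forms of the brainstem, spinal cord and motor nerve endings.

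RNA was sequenced from 2 brain regions of rats in a series on chronic orofacial pain. These were the thalamus, which relays sensory signals to cortex, and the rostral ventral medulla of the brainstem (RVM), which tunes pain signals through descending fibres. Each region gave 3 libraries treated with 0.9% saline and 3 with CFA, which in pain research is the common short form of complete Freund's adjuvant, an emulsion that causes lasting inflammation; the labels give only the letters. They state no dose, site, time, strain, sex or age. Whether libraries of a group came from separate animals is not said either, and p-values then reflect the spread among these libraries, which may be technical. Bulk tissue was sequenced, and fewer cells of a type and less RNA per cell cannot be told apart.

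The libraries held 14.9 to 19.2 M reads assigned to genes. The regional labels were borne out by hindbrain marker genes. Thalamic markers did the same except in thalamus CFA library 1, whose sum of 246 FPKM lay within the RVM range. The summed level of 10 hindbrain Hox genes was 45.7 to 69.3 FPKM in RVM and at most 0.0848 FPKM in thalamus, while 10 thalamic neuron markers summed to 585 to 1298 FPKM in thalamus saline, 246 to 769 in thalamus CFA and 232 to 281 in RVM. The extraction text speaks of retinas, and 9 retina genes summed to at most 1.91 FPKM in any library. Libraries 1 of both thalamus groups had the lowest thalamic marker sums of their groups (585 and 246 FPKM). They also had the highest sums of 7 cortex and hippocampus markers (130 and 307 FPKM, against 30.5 to 70.4 in the other thalamus libraries). Markers of GABA neurons, among them Pvalb, summed to 575, 111 and 154 FPKM in thalamus saline libraries 1, 2 and 3. In thalamus CFA libraries 1, 2 and 3 they summed to 173, 361 and 253 FPKM. Choroid plexus and ependymal markers summed to 10249 FPKM in thalamus CFA library 1 and 2456 in library 2, against 5.43 to 26.9 in the other thalamus libraries. Microglial markers summed to 338 FPKM in RVM CFA library 2, against 1026 and 877 in libraries 1 and 3 of that group.

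The clearest pattern was regional. In saline libraries Stx1a, Vamp2, Syt1, Syn1 and Syn2 were higher in thalamus, by 2.39-fold to 5.74-fold, and Snap25, Vamp1 and Syt2 were higher in RVM, by 1.38-fold to 6.97-fold. The VAMP and synaptotagmin pairs were thus split between the regions, with Vamp2 and Syt1 on the thalamic side and Vamp1 and Syt2 on the RVM side. In all, 8 of 9 members passed a limma adjusted p of 0.05 in saline, 5 higher and 3 lower in thalamus, against 45.3% of the 14396 genes tested (22.6% higher and 22.7% lower). For the same 8 the 3 thalamus libraries did not overlap the 3 RVM libraries, against 58.8% of genes (28.9% higher and 29.9% lower). In CFA libraries 9 of 9 passed, the same 5 higher and the other 4 lower in thalamus, against 33.0% of 14787 genes (14.9% higher and 18.1% lower), and none of the 9 overlapped, against 51.7% of genes (24.4% and 27.3%). The genes that passed in both treatments with the same direction made up 26.7% of the 14088 genes tested in both comparisons and 8 of the members. The size of the difference exceeded that of 99.4% of genes for Syt2, 99.2% for Vamp1 and 98.6% for Stx1a in saline.

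**Figure D1:**
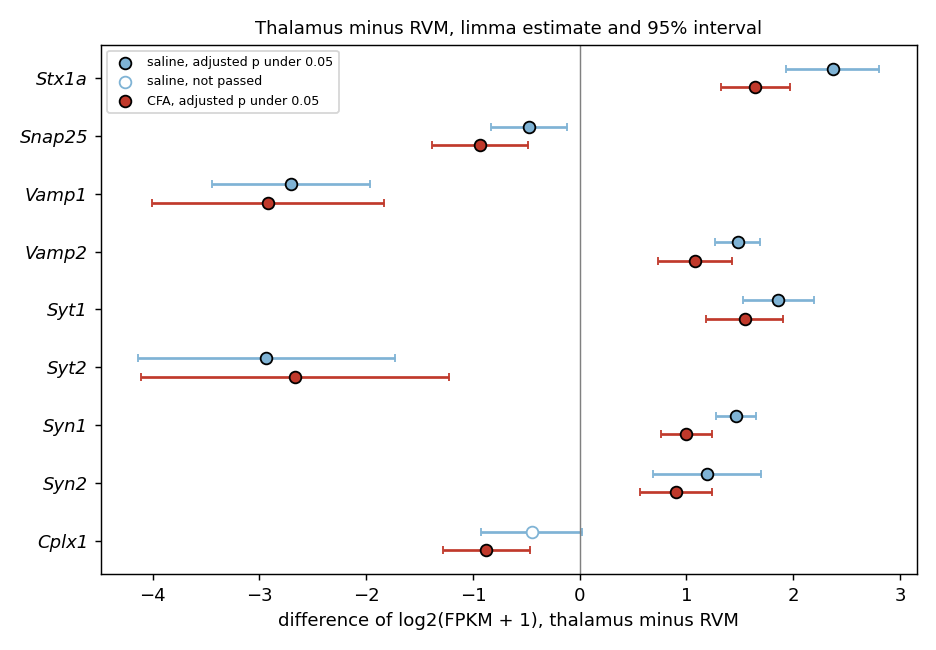
Log2 difference in level between thalamus and RVM (horizontal axis, thalamus minus RVM on the log2(FPKM + 1) scale) for the 9 genes in saline and in CFA libraries, with 95% confidence intervals from limma and filled circles for genes that passed. Stx1a, Syt1, Vamp2, Syn1 and Syn2 lie on the thalamic side in both treatments, from 0.90 to 2.37, and Vamp1 and Syt2 lie furthest on the RVM side, from -2.67 to -2.93.

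The DNA just upstream of the genes with the largest regional differences is shown to let the promoters of the thalamic forms (Stx1a, Vamp2, Syt1) be read beside those of the RVM forms (Vamp1, Syt2). These are the 250 bases before the RefSeq start on the rat build GRCr8, matched by symbol, 5′ to 3′ on the gene's strand. Of the 9 members 8 had an entry. Capitals mark 2 motifs, searched on both strands: the GC box, GGGCGG or its reverse complement CCGCCC, bound by Sp-family factors, and the cAMP response element TGACGTCA, which reads the same on both strands. The motifs did not overlap each other.
Stx1a, chr12:27306472-27306721, minus strand: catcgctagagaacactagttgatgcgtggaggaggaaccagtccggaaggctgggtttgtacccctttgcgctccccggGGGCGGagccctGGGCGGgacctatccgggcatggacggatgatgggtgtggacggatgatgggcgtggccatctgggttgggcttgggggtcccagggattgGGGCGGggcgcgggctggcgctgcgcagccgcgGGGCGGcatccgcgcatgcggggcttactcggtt
Vamp2, chr10:54292539-54292788, plus strand: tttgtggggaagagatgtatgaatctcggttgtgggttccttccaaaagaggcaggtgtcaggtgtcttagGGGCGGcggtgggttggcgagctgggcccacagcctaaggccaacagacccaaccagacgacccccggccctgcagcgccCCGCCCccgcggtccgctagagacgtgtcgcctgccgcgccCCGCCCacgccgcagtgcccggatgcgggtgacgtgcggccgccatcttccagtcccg
Syt1, chr7:46244214-46244463, minus strand: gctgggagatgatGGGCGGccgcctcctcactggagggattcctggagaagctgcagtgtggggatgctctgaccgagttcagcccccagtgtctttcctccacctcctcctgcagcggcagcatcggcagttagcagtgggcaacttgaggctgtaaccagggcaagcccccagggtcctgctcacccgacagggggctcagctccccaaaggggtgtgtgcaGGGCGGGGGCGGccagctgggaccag
Vamp1, chr4:159698644-159698893, plus strand: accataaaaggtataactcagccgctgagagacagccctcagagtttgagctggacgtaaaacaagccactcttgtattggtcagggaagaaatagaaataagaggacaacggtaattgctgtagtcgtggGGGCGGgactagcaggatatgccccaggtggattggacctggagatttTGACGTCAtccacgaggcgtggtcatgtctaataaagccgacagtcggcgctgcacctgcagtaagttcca
Syt2, chr13:48736872-48737121, plus strand: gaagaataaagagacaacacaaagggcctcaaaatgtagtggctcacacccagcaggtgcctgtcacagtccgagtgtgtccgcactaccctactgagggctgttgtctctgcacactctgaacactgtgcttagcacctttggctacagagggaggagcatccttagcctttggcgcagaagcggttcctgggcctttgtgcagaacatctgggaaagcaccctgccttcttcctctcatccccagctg

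GC boxes stood at 4 places in the Stx1a window and at 3 each in those of Vamp2 and Syt1. The Vamp1 window had 1 GC box and 1 cAMP response element, 71 to 64 bases upstream of the start, and the Syt2 window had neither motif. Of the 33469 rat promoter windows of this length, 30.5% held a GC box and 1.59% a cAMP response element. The GC content was 68.4%, 68.0% and 66.0% for Stx1a, Vamp2 and Syt1 and 50.4% and 54.4% for Vamp1 and Syt2, beside a median of 51.2% over all windows. The remaining thalamic forms Syn1 and Syn2 stood at 69.6% and 66.8%, and Cplx1, higher in RVM in CFA libraries, stood at 68.0%. Syn1 had a cAMP response element 190 to 183 bases upstream and no GC box, Syn2 had 3 GC boxes and Cplx1 had 2. The TATA box letters TATAAA were in none of the 8 windows on either strand and in 12.9% of all windows. These matches describe letters in a window and not binding, which was not measured.

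**Figure D2:**
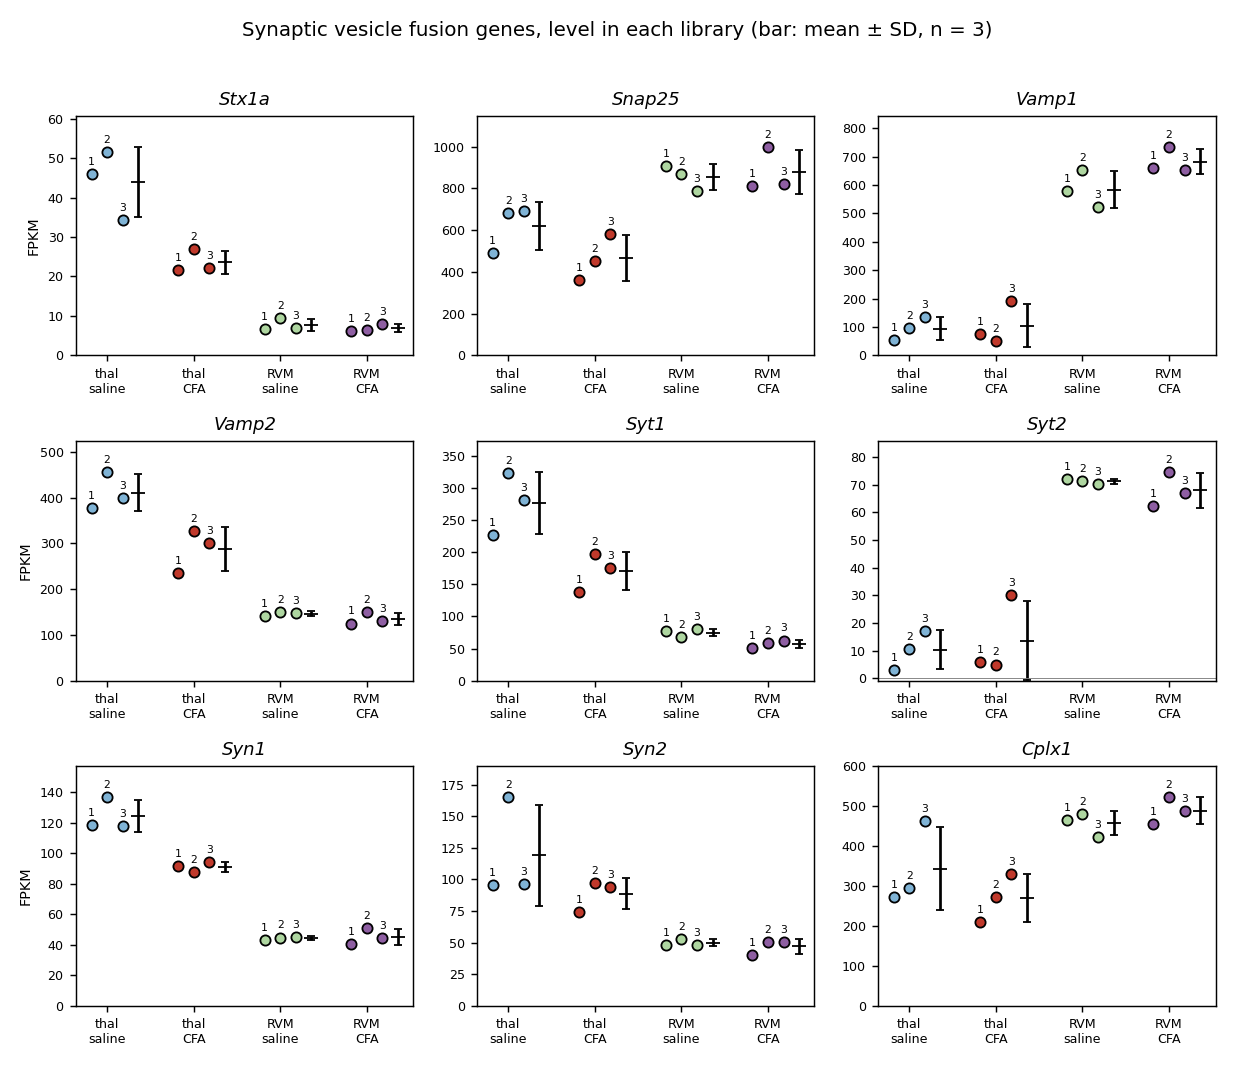
Level of each of the 9 genes in FPKM (vertical axis, a separate scale per panel) in every library, numbered by replicate, by region and treatment; bars are the mean ± SD of 3 libraries. Vamp1 and Syt2 sit low in thalamus and high in RVM, and Stx1a, Vamp2, Syt1, Syn1 and Syn2 the reverse. In both thalamus groups library 3 is the highest for Vamp1, Syt2, Snap25 and Cplx1.

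Among the target-membrane SNAREs, syntaxin 1A and SNAP-25 had opposite regional patterns. Stx1a (ENSRNOG00000029165, chromosome 12, 24682041 to 24710019, minus strand) was at 46.1, 51.6 and 34.3 FPKM in thalamus saline libraries 1, 2 and 3 and at 6.70, 9.40 and 6.88 in RVM saline. Every thalamus library was far above every RVM library, and the log2 difference was 2.37 ± 0.18 (SE; limma adjusted p = 0.000275). In CFA libraries it was at 21.7, 26.9 and 22.0 FPKM in thalamus and 6.07, 6.51 and 8.04 in RVM, again with no overlap and a log2 difference of 1.64 ± 0.13 (limma adjusted p = 0.000848). These coordinates, and those below, are as the table lists them for the whole gene, exons and introns together; the sources used here do not name their build.

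Snap25, which supplies the palmitoylated target-membrane strands of the bundle, was the most abundant member in all 4 groups. The gene (ENSRNOG00000006037, chromosome 3, 129599353 to 129788400, plus strand) was at 489, 683 and 689 FPKM in thalamus saline and at 909, 867 and 786 in RVM saline. The saline difference was small, with a log2 value of -0.48 ± 0.15 (limma adjusted p = 0.038), and its call was lost in 8 of 17 alternatives, among them leaving out any 1 RVM saline library. In CFA libraries Snap25 was at 362, 452 and 580 FPKM in thalamus and at 813, 999 and 822 in RVM, a log2 difference of -0.94 ± 0.19 (limma adjusted p = 0.0117). That call was lost with quantile normalization (log2 -0.53, limma adjusted p = 0.0567) and without thalamus CFA libraries 1 and 2 together (log2 -0.59, limma adjusted p = 0.0597).

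The vesicle SNAREs exchanged places between the regions. Vamp1 (ENSRNOG00000019219, chromosome 4, 157726941 to 157733643, plus strand) was at 53.7, 95.4 and 134 FPKM in thalamus saline and at 579, 652 and 522 in RVM saline. Vamp2 (ENSRNOG00000006989, chromosome 10, 55675575 to 55679450, plus strand) was at 378, 456 and 399 FPKM in thalamus saline and at 140, 150 and 149 in RVM saline. No library of one region reached the range of the other for either gene. The log2 difference was -2.71 ± 0.31 for Vamp1 (limma adjusted p = 0.000942) and 1.48 ± 0.09 for Vamp2 (limma adjusted p = 0.000134).

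The exchange was also present in CFA libraries. There Vamp1 was at 73.9, 50.2 and 192 FPKM in thalamus and 661, 734 and 652 in RVM. Vamp2 was at 234, 328 and 302 FPKM in thalamus and 125, 150 and 130 in RVM. Their log2 differences were -2.92 ± 0.45 and 1.08 ± 0.15 (limma adjusted p = 0.00529 and 0.00339).

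The calcium sensors differed by region in the same manner. Syt1 (ENSRNOG00000006426, chromosome 7, 50084060 to 50638798, minus strand), the sensor of fast synchronous release in the forebrain, was at 227, 323 and 281 FPKM in thalamus saline and 76.6, 68.0 and 80.0 in RVM saline. Syt2 (ENSRNOG00000004756, chromosome 13, 51534025 to 51578052, plus strand), the fast sensor of many brainstem and spinal synapses, was at 3.04, 10.5 and 17.1 FPKM in thalamus saline and 72.0, 71.4 and 70.3 in RVM saline. Thalamus libraries were thus widely spread in Syt2 while the RVM libraries lay close together. The log2 difference was 1.86 ± 0.14 for Syt1 and -2.93 ± 0.50 for Syt2 (limma adjusted p = 0.000248 and 0.00427).

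In CFA libraries Syt1 was at 139, 197 and 176 FPKM in thalamus and 50.9, 58.9 and 62.4 in RVM. Syt2 was at 5.89, 4.97 and 30.0 FPKM in thalamus and 62.2, 74.7 and 67.1 in RVM. Neither gene overlapped between regions. Their log2 differences were 1.54 ± 0.15 and -2.67 ± 0.60 (limma adjusted p = 0.00131 and 0.0177), and the Syt2 call was lost without thalamus CFA library 2 (log2 -2.23) or any 1 RVM CFA library (log2 -2.73, -2.60 and -2.67).

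Both synapsins, the phosphoproteins that tether vesicles to each other and to actin, were higher in thalamus. Syn1 (ENSRNOG00000010365, chromosome X, 1321315 to 1379198, plus strand) was at 119, 137 and 118 FPKM in thalamus saline and 42.9, 44.7 and 45.1 in RVM saline, a log2 difference of 1.47 ± 0.08 (limma adjusted p = 0.000116). Syn2 (ENSRNOG00000008157, chromosome 4, 147037179 to 147195096, plus strand) was at 95.7, 165 and 96.3 FPKM in thalamus saline and 48.4, 53.1 and 48.0 in RVM saline, a log2 difference of 1.19 ± 0.21 (limma adjusted p = 0.00486). Thalamus saline library 2 stood high for Syn2, yet the lowest thalamus library was still above the highest of RVM.

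In CFA libraries the synapsin differences were smaller in value. Syn1 was at 91.5, 87.6 and 93.9 FPKM in thalamus and 40.7, 50.8 and 44.2 in RVM. Syn2 was at 74.6, 97.1 and 94.3 FPKM in thalamus and 40.3, 50.4 and 50.3 in RVM. The log2 differences were 1.00 ± 0.10 and 0.90 ± 0.14 (limma adjusted p = 0.00141 and 0.00531).

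Cplx1, the complexin that both clamps and promotes fusion of primed vesicles, was on the RVM side in CFA libraries. The gene (ENSRNOG00000000060, chromosome 14, 2194933 to 2226598, plus strand) was at 272, 294 and 462 FPKM in thalamus saline and 466, 481 and 424 in RVM saline. Thalamus library 3 fell inside the RVM range, and the log2 difference of -0.45 (95% interval -0.92 to 0.02) did not pass (limma adjusted p = 0.107), though it did without that library (log2 -0.69, adjusted p = 0.00418). In CFA libraries Cplx1 was at 209, 273 and 329 FPKM in thalamus and 456, 522 and 488 in RVM, a log2 difference of -0.88 ± 0.17 (limma adjusted p = 0.0108), a call lost with quantile normalization (log2 -0.50, limma adjusted p = 0.0542).

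FPKM is set per gene length, so the members can also be ordered within a region. In thalamus saline Snap25 led, followed by Vamp2, Cplx1 and Syt1, whose neighbouring ranges overlapped, then Syn1, Syn2 and Vamp1, which overlapped too, then Stx1a and last Syt2. In RVM saline the order was Snap25, Vamp1, Cplx1, Vamp2, Syt1 and Syt2, Syn2, Syn1 and last Stx1a, and only the ranges of Syt1 and Syt2 overlapped. Vamp1 was thus the seventh member in thalamus and the second in RVM by mean level.

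Paralogue shares within a library do not depend on the library's scaling. Vamp1 supplied 12.5%, 17.3% and 25.1% of the summed FPKM of Vamp1 and Vamp2 in thalamus saline libraries and 80.5%, 81.3% and 77.8% in RVM saline. Syt1 supplied 98.7%, 96.8% and 94.2% of the Syt1 and Syt2 sum in thalamus saline and 51.6%, 48.8% and 53.2% in RVM saline. So in RVM the 2 sensors were about equal in level, whereas Vamp1 prevailed over Vamp2.

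Thalamus minus RVM, the log2 ratio differed by -4.11 for Vamp1 to Vamp2 and by 4.69 for Syt1 to Syt2. Each gave p = 0.005 in an exact two-sided permutation of region labels within treatment, the smallest p that its 400 arrangements allow, and an adjusted p of 0.0167 over 10 such tests, with all 6 thalamus libraries on one side of all 6 RVM libraries. The ratio of Syn1 to Syn2 differed by 0.19 (exact permutation p = 0.17, adjusted p = 0.333) and that of Cplx1 to Cplx2 by 0.12 (exact permutation p = 0.94, adjusted p = 0.94). Syn1 made up 45.3% to 55.3% of its pair in every one of the 12 libraries. Cplx1 made up 66.9% and 49.2% of its pair in thalamus libraries 1 of saline and CFA and 79.3% to 92.9% in the other thalamus libraries. Cplx2 was at 135 and 215 FPKM in those libraries 1 and at 22.4 to 73.8 in the others; these are also the libraries highest in cortex and hippocampus markers, whose part in the result was not tested. The sources used here do not say how reads matching both genes of a pair were counted.

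**Figure D3:**
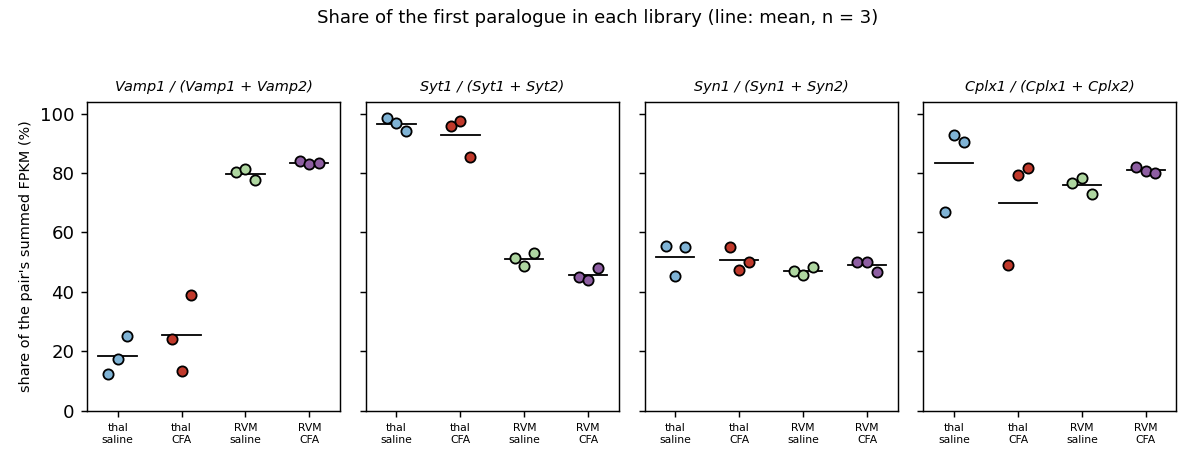
Share of the first gene of each paralogue pair in the summed FPKM of the pair (vertical axis, %), for each library of the 4 groups, with lines at the mean of 3 libraries. The Vamp1 share is 12.5% to 38.8% in thalamus and 77.8% to 84.1% in RVM, the Syt1 share is 85.4% to 98.7% in thalamus and 44.1% to 53.2% in RVM, and the Syn1 share is similar in all groups.

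CFA did not shift these ratios past the threshold. The Vamp1 to Vamp2 ratio differed by 0.45 (exact permutation p = 0.2, adjusted p = 0.333) and the Syt1 to Syt2 ratio by -0.62 (exact permutation p = 0.285, adjusted p = 0.407). That of Syn1 to Syn2 differed by 0.03 (exact permutation p = 0.85, adjusted p = 0.94) and that of Cplx1 to Cplx2 by -0.44 (exact permutation p = 0.465, adjusted p = 0.581). The Cplx1 to Cplx2 value averages opposite changes, -1.30 in thalamus and 0.42 in RVM. In thalamus Cplx1 made up 70.1% ± 18.1 of its pair with CFA and 83.4% ± 14.3 with saline (SD, n = 3). In RVM it made up 80.9% ± 1.01 and 76.0% ± 2.60. With CFA the RVM share of Vamp1 was 83.5% ± 0.53, beside 79.9% ± 1.81 with saline, and that of Syt1 was 45.8% ± 2.16, beside 51.2% ± 2.25 (SD, n = 3).

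Other genes of the vesicle cycle show whether the members stood alone. Of 77 tested genes in 5 lists, 37 were higher and 12 lower in thalamus saline than in RVM saline, with a median log2 difference of 0.39 beside -0.02 over all genes, and 22 and 12 in CFA libraries. The members had 5 and 3 of 9 in saline and a median of 1.19. Over all genes, 22.6% were called higher and 22.7% lower in saline, and 14.9% and 18.1% in CFA. These shares apply equally to the counts of each list below, some of which lie near them. Rescaling each library to the same total moved the median of all genes from -0.02 to 0.14 in saline and from -0.00 to 0.29 in CFA, and that of the members to 1.37 and 1.24. Differences smaller than these shifts depend on the scaling.

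Priming, docking and active zone genes were on the thalamic side, with 13 of 22 higher and 0 lower in saline and 9 higher and 0 lower in CFA. Bsn (bassoon), a giant scaffold of the active zone, was at 25.8 ± 5.29 FPKM in thalamus saline and 3.79 ± 0.04 in RVM saline (log2 2.47). Rims1, the scaffold that links vesicles to calcium channels, was at 25.9 ± 5.54 and 7.26 ± 0.58 FPKM (1.69), and Unc13a, the priming factor, at 23.9 ± 2.14 and 8.95 ± 0.70 FPKM (1.32). Pclo, the bassoon relative piccolo, and Rims3 had log2 differences of 1.62 and 2.72.

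Among other synaptotagmins, the Doc2 genes and other complexins, 7 of 14 were higher and 1 lower in thalamus saline, and 7 and 3 in CFA. Not all of these are taken here as calcium sensors. Syt7, a high-affinity sensor of slow and asynchronous release, was at 113 ± 34.8 FPKM in thalamus saline and 11.3 ± 0.57 in RVM saline, a log2 difference of 3.16 that exceeded those of Syt1 and Syt2 in size. Syt9, another fast sensor, was at 39.9 ± 11.3 and 5.06 ± 1.20 FPKM (2.73). Syt17 and Syt10 followed with 2.14 and 1.74. Syt2 was thus on the RVM side while these relatives were on the thalamic side. Others of the 14 were on the RVM side too. In 3 every thalamus saline library was below every RVM saline library, and in 7 every one was above, beside 29.9% and 28.9% of genes. Syt3 was among the 3, at 19.1 ± 3.09 FPKM in thalamus saline and 27.9 ± 0.54 in RVM saline.

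Other SNAREs and the proteins that take SNARE bundles apart had 1 of 13 higher and 5 lower in thalamus saline, with a median of -0.01. Those lower serve membrane traffic in most cells: Vamp3 (cellubrevin, log2 -1.03), Stx4 (-0.61), Stx2 (-0.57), Vamp7 (-0.49) and Snap29 (-0.40). Nsf, the ATPase that separates spent SNARE bundles, was higher (0.52), a call lost in 5 of 6 fits that left out 1 library (log2 0.39 to 0.69, limma adjusted p up to 0.0955). In CFA 0 were higher and 4 lower, and the median turned from -0.18 to 0.16 when libraries were rescaled to the same total.

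Vesicle membrane genes had 8 of 12 higher and 1 lower in thalamus saline and 3 and 1 in CFA. Scamp5 and Atp6v0a1, a subunit of the proton pump that fills vesicles, had log2 differences of 1.45 and 1.17 in saline, and Syp, the vesicle marker synaptophysin, 0.69. The exception was Sv2c, a glycoprotein of the vesicle membrane, at 4.85 ± 3.39 FPKM in thalamus saline and 29.0 ± 1.23 in RVM saline (log2 -2.51), which put it beside Vamp1 and Syt2. Endocytosis genes, which retrieve vesicle membrane after release, were mixed, with 8 of 16 higher (Dnm1 0.76, Synj1 0.90) and 5 lower (Picalm -0.54, Clta -0.48) in saline, and 3 and 4 in CFA.

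Of the general neuron genes 6 of 12 were higher and 1 lower in thalamus saline, with a median of 0.31. There were 2 higher and 3 lower in CFA, with a median of -0.08. Celf4 (1.44) and Rbfox3 (0.95) were the highest in saline and Stmn2 (-0.43) the lowest. Oligodendrocyte markers summed to 4843 to 7747 FPKM in thalamus. In RVM they summed to 23330 to 26521 FPKM with saline and 17339 to 18300 with CFA. By limma 8 of 8 of these markers were lower in thalamus in both treatments. Their part in the result was not tested.

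Genes linked to fast-firing, heavily myelinated neurons had 0 of 11 higher and 5 lower in thalamus saline and 7 lower in CFA. Nefh, the heavy neurofilament of large axons, was at 71.0 ± 27.4 FPKM in thalamus saline and 425 ± 57.8 in RVM saline (log2 -2.62). Nefm and Nefl had -2.85 and -1.85, Pvalb, the calcium buffer parvalbumin, -2.60 and Scn4b, a sodium channel subunit for rapid repetitive firing, -2.16. The other 6 did not pass in saline.

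Some genes of this list were high in the same thalamus library as Vamp1 and Syt2. Library 3 was the highest of its group in both treatments for Vamp1 (134 and 192 FPKM) and Syt2 (17.1 and 30.0 FPKM). Pvalb was at 17.2, 13.3 and 38.4 FPKM in saline libraries 1, 2 and 3 and at 28.7, 13.7 and 64.5 in CFA. Library 3 was also the highest of both groups for Scn4b (26.3 and 28.2 FPKM) and Nefh (102 and 83.8 FPKM). The same held for the members Snap25 (689 and 580 FPKM) and Cplx1 (462 and 329 FPKM).

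Over the 6 thalamus libraries Pearson's r of log2(FPKM + 1) was 0.976 between Vamp1 and Syt2. Over 10 fast-firing genes r lay between 0.65 and 0.87 with Vamp1 and between 0.71 and 0.88 with Syt2. These values were not particular to them. For each of the 10, between 131 and 807 genes had a higher r with Vamp1, and between 116 and 544 with Syt2. The partners Vamp2 and Syt1 tracked each other in the same libraries (0.983) and not Vamp1 or Syt2 (Vamp1 and Vamp2, 0.05; Syt1 and Syt2, 0.13). Snap25 and Cplx1 each had an r of 0.60 to 0.63 with Vamp1 and with Syt2. Both genes of each r were measured in the same 6 libraries, whose marker content differed, and the values are descriptions. In RVM the corresponding r between Vamp1 and Syt2 was 0.01 over 6 libraries, among which Syt2 lay between 62.2 and 74.7 FPKM.

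**Figure D4:**
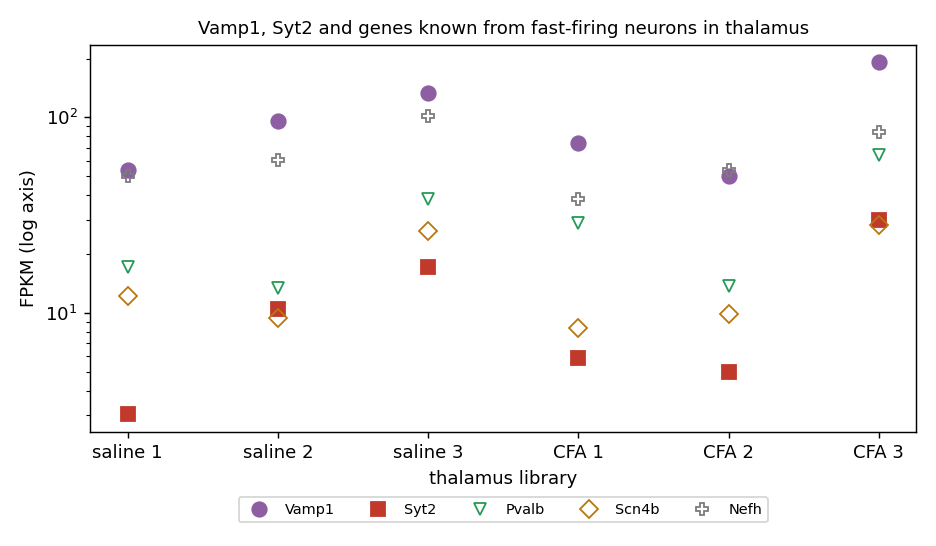
Level in FPKM (vertical axis, log scale) of Vamp1, Syt2 (filled marks) and 3 genes of fast-firing neurons (open marks) in the 3 saline and 3 CFA thalamus libraries. Library 3 is the highest of its group for Vamp1, Syt2, Pvalb, Scn4b and Nefh in both treatments.

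The genes whose pattern over all 12 libraries was most like each member, by Pearson's r of log2(FPKM + 1), were mostly regional genes, since the libraries form 2 regional clusters. For Stx1a they were Dlg4, the postsynaptic scaffold PSD-95 (0.991), Ttyh3 (0.990) and Sez6l2 (0.989), and for Syn1 they were Sez6l2 again (0.994), Lzts3 (0.992) and Mgrn1 (0.991). Syt1 was most like Rims1 (0.995), Nolc1 (0.994) and Ncoa2 (0.993), and Vamp2 like Myt1l (0.997), Gnao1 (0.996) and Sgip1 (0.996). For Syt2 the list was Fam151a (0.988), Asah2 (0.988) and Vamp1 (0.984), and for Vamp1 it was Tpd52l2 (0.991), Suclg1 (0.989) and Atp8b3 (0.988). Snap25 was most like Arl8b (0.995), a GTPase of lysosome and presynaptic cargo transport, the metabolic gene Mdh1 (0.994) and Ndufaf5 (0.987). Syn2 was most like Map1s (0.981), Gpd1l (0.981) and the vesicle proton pump gene Atp6v0a1 (0.979). Cplx1, with the weakest likeness, was closest to Dtnbp1 (0.969), Slc25a5 (0.961) and Ndufaf5 (0.961).

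The question of CFA against saline gave smaller differences. In thalamus Stx1a fell, from 46.1, 51.6 and 34.3 FPKM in saline to 21.7, 26.9 and 22.0 in CFA, a log2 change of -0.86 ± 0.17 (95% interval -1.27 to -0.45, limma adjusted p = 0.0497). It was the only one of 9 members to pass, against 0.272% of 14722 genes called lower, 3.84% called higher and 4.11% called in either direction. The call lay at the threshold and was lost in 15 of 19 alternatives, with log2 changes of -1.02 to -0.66 and adjusted p-values of 0.0103 to 0.369, among them 5 of the 6 fits that left out 1 library.

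**Figure D5:**
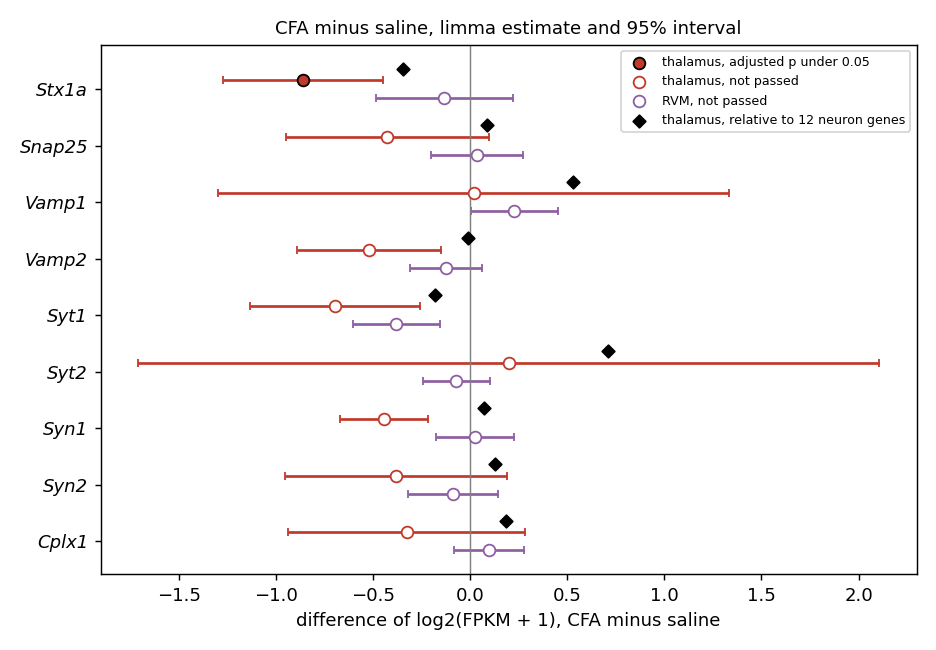
Log2 change with CFA (horizontal axis, CFA minus saline on the log2(FPKM + 1) scale) of the 9 genes in thalamus and in RVM, with 95% confidence intervals from limma; filled circles passed and black diamonds are thalamus values relative to 12 general neuron genes. In thalamus 7 of 9 values are below 0 and the interval of Stx1a runs from -1.27 to -0.45, while in RVM the values lie between -0.38 and 0.23.

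Another 3 members did not overlap between treatments in thalamus and did not pass. Syn1 had 119, 137 and 118 FPKM with saline and 91.5, 87.6 and 93.9 with CFA (log2 -0.44 ± 0.09, limma adjusted p = 0.0602). Syt1 was at 277 ± 48.1 and 171 ± 29.5 FPKM (log2 -0.70 ± 0.18, limma adjusted p = 0.112), and Vamp2 at 411 ± 40.7 and 288 ± 48.3 FPKM (log2 -0.52 ± 0.15, limma adjusted p = 0.146). With Stx1a that made 4 of 9 members with every CFA library below every saline library, against 16.8% of genes. The limma p of these 4 was below 0.05 before adjustment, as was that of 3152 of the 14722 genes tested. Vamp2, Syt1 and Syn1 passed in the fit with all 12 libraries, Syt1 and Syn1 with library weights, and Syt1 also without libraries 1 of both groups (log2 -0.69, limma adjusted p = 0.0464).

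The remaining members overlapped in thalamus. Snap25 had a log2 value of -0.43 (limma adjusted p = 0.298), Syn2 -0.38 (0.368) and Cplx1 -0.33 (0.461). The forms that were low in thalamus gave 0.02 for Vamp1 (95% interval -1.30 to 1.33) and 0.20 for Syt2 (95% interval -1.71 to 2.11), intervals that hold large changes either way. Over the 9 members 7 values were negative, beside 8905 of the 14722 genes tested. The members' median was -0.43 beside -0.08 over all genes, and -0.26 beside 0.07 after rescaling to the same total. Without CFA library 3, in which Vamp1 and Syt2 were high, all 9 were negative, with a median of -0.56. Without CFA library 1 the median was -0.26.

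Other neuronal genes also had mostly negative values in thalamus. All 12 general neuron genes had negative log2 values, with a median of -0.50, beside 8905 of the 14722 genes tested. In 8 of the 12 every CFA library was below every saline library, against 16.8% of genes. By limma or limma-voom 0 passed, and 5 had an unadjusted limma p below 0.05. Of 77 other vesicle-cycle genes 57 had negative values, beside 8905 of the 14722 genes tested, and the median of the 77 was -0.29. None of them passed by limma or by limma-voom, and 18 had an unadjusted p below 0.05, of which 17 were lower. Over all genes 3152 of the 14722 tested met that unadjusted limma cut. The smallest adjusted p in each list was for Ppfia3, an active zone liprin (log2 -0.50, limma adjusted p = 0.0575), Scamp5 (-0.46, 0.127), Picalm (0.35, 0.147), Syt11 (-0.39, 0.16) and Vamp7 (-0.23, 0.221).

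Microglial genes rose in the same libraries. Their markers summed to 200 to 227 FPKM in thalamus saline and 759 to 1039 in thalamus CFA. By limma 7 of 9 were called higher, against 3.84% of the genes tested. The thalamic neuron markers had a median log2 value of -0.89 with 0 of 10 called by limma. Their part in the result was not tested. Measured against the mean of the 12 general neuron genes of the same library, a scale chosen after the data were seen, Stx1a differed by -0.35 between CFA and saline and the libraries overlapped (exact permutation p = 0.3, where 3 against 3 allow no less than 0.1). On that scale Vamp2 differed by -0.01, Syt1 by -0.18 and Syn1 by 0.07.

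The Syn1 locus holds another gene that rose with CFA. Timp1, an inhibitor of matrix metalloproteinases, is listed inside the Syn1 span on the opposite strand (chromosome X, 1364786 to 1369384). It was at 3.33, 1.52 and 1.63 FPKM in thalamus saline and 92.1, 25.7 and 59.6 in thalamus CFA (log2 4.12 ± 0.47, limma adjusted p = 0.0059), and at 5.30 FPKM in RVM CFA library 2 against 28.0 and 21.2 in libraries 1 and 3. Its relative Timp4 lies likewise inside Syn2 (chromosome 4, 147156948 to 147163467, minus strand) and was at 24.3 ± 9.33 FPKM in thalamus saline and 15.7 ± 4.71 in thalamus CFA (log2 -0.55, limma adjusted p = 0.379). The library kit is not stated to mark strand, so reads from any exon shared by the nested and the host gene cannot be told apart. LOC102555453, also listed inside Syn1 on the opposite strand (chromosome X, 1345684 to 1346181), was at 68.7 ± 40.3 FPKM in thalamus saline and 92.0 ± 25.1 in thalamus CFA (log2 0.63, limma adjusted p = 0.515). Araf overlaps the end of Syn1 by its listed span and was at 56.1 ± 3.16 FPKM in thalamus saline and 46.0 ± 4.44 in thalamus CFA (log2 -0.28, limma adjusted p = 0.2). These neighbours were named after their values were seen.

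In RVM none of the 9 members passed, as 0.0% of 14289 genes did by limma (0 of 9 members and 0 genes also by limma-voom). An unadjusted limma p below 0.05 was found for 2030 genes and 2 members. Without RVM CFA library 2, which was low in microglial markers, 484 genes and 0 members passed. Oligodendrocyte markers summed to 23330 to 26521 FPKM in RVM saline and 17339 to 18300 in RVM CFA, with 0 of 8 called. Their part in the result was not tested. Syt1 had 76.6, 68.0 and 80.0 FPKM with saline and 50.9, 58.9 and 62.4 with CFA (log2 -0.38 ± 0.09, limma adjusted p = 0.242). Vamp1 had 579, 652 and 522 FPKM with saline and 661, 734 and 652 with CFA (log2 0.23 ± 0.09, limma adjusted p = 0.347).

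Syt1 and Vamp1 did not overlap between treatments in RVM, 1 of 9 members lower and 1 of 9 higher, against 12.5% and 7.27% of genes (19.8% in all). The gap was smallest for Vamp1, whose highest saline and lowest CFA library were both at 652 FPKM when rounded. The other 7 members overlapped, and their log2 values lay between -0.13 for Stx1a (95% interval -0.49 to 0.22) and 0.10 for Cplx1 (95% interval -0.08 to 0.28). The median over the 9 was -0.07 beside -0.02 over all genes. Of 76 other vesicle-cycle genes 59 had negative values, beside 8009 of the 14289 genes tested, and the median of the 76 was -0.09. Of these 76, 0 passed by limma or limma-voom, and 16 had an unadjusted p below 0.05.

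Whether the CFA effect differed between the regions was tested over all 12 libraries. By limma 0 of 9 members passed, as 0.0% of 13738 genes did, also by limma-voom, and 3 members and 1560 genes had an unadjusted p below 0.05. The difference, thalamus minus RVM, was -0.73 ± 0.24 for Stx1a (limma adjusted p = 0.378), -0.47 ± 0.12 for Syn1 (0.337) and -0.40 ± 0.18 for Vamp2 (0.435). For Syt1, whose CFA values were below saline in both regions, it was -0.32 ± 0.22 (limma adjusted p = 0.551). The Stx1a fall in thalamus is therefore not shown to differ from its change in RVM.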

How the data were processed

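Bulk RNA was measured in 12 rat libraries, 3 in each of 4 groups taken from the titles, tissue and treatment labels. TRIzol extraction and an Illumina TruSeq RNA kit are given, per the labels' protocols. The authors deposited 1 table of FPKM with gene lengths and coordinates, per the file headers; the aligner, counter, build and annotation are not named in the sources used here. Deposited FPKM multiplied by gene length gave whole reads for 100% of values within 0.01, 14.9 to 19.2 M per library, at which 3 reads are 0.156 to 0.201 CPM (counting error only). Replicates differed by more than sampling noise (chi-square per degree of freedom 7.83 to 66.3). FPKM totals were 444470 to 595130, lowest in thalamus CFA.

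Values were fitted as log2(FPKM + 1), which understates changes of low genes, with limma 3.58.1 in R 4.3.3 (trended empirical Bayes), for genes averaging 1 FPKM or more, and Benjamini-Hochberg adjustment over all of them. Fits held the 6 libraries compared, or all 12 for the difference of effects. Ratios were tested by exact permutation in Python 3.11.15. The scripts were tested on simulated data. Alternatives were a pseudocount of 0.1, no filter or 5 FPKM, 3 scalings, robust and weighted fits, a replicate block, all libraries, limma-voom on recovered reads, and libraries left out. Equal replicate numbers are not stated to share an animal, so no pairing was used in the main fits. Deviations from group means correlated at 0.36, 0.06 and 0.27 for equal numbers between the thalamus groups, and -0.45 to 0.31 for unequal ones. In each pair of groups 1 or more equal-number pairs correlated at or below 0.1. These values do not settle whether equal numbers belong together, so the block stands among the alternatives. The 9 members and 7 lists of other genes were chosen with earlier results of these data known. All members were named; from each list up to 6 called genes by smallest p, otherwise up to 3; and the 3 genes most correlated with each member. Overlapping genes and the neuron-relative scale were chosen after the data were seen. Of the listed symbols, Snap23 and Sv2b and 4 marker genes were not analysed here. Of the 10 ratio tests adjusted together, 8 are given, and 2 listed genes counted in their lists are not reported here. Promoter windows came from RefSeq.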

Additional observations from a re-analysis of the deposited data

How the results depend on the processing

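The regional results for the members depended little on the processing: 7 to 9 members passed in saline and 7 to 9 in CFA under all alternatives. In CFA against saline in RVM, and in the difference of effects, 0 members passed under every alternative run. The thalamus CFA count of 1 was the fragile value. It was 0 with no filter, with the 5 FPKM filter, after median-of-ratios scaling, quantile normalization or rescaling to equal totals, with robust empirical Bayes, with limma-voom, and without CFA libraries 1 and 2 together, and 0 to 1 when a library was left out in turn. It was 2 with library weights, 3 with the replicate block (Stx1a, Vamp2 and Syt1) and 4 with all 12 libraries in a single model. The block left the region differences of the Vamp1/Vamp2 and Syt1/Syt2 log2 ratios at -4.11 and 4.69, but their adjusted permutation p rose to 0.104, because fewer arrangements remain; it also ended the Snap25 call between saline regions. In thalamus not every library correlated best with its own number. Eps15, named in no comparison above, turned from -0.33 to 0.0098 in thalamus against RVM in CFA after rescaling to the same total; the cause was not tested.

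Over all genes the thalamus CFA count of 605 was 298 with the 5 FPKM filter, 1010 with weights, 1338 with the block, 1932 with all 12 libraries, 66 without CFA libraries 1 and 2, 321 and 309 without saline library 2 or 3 and 394 without CFA library 1. In RVM the main count was 0. It was 1 with no filter or without saline library 1 or 2, and 2 without CFA library 1. Without CFA library 2, the library low in microglial markers, it was 484. The difference of effects gave 146 without libraries 1 of both thalamus groups. The region count of 4880 in CFA was 2906 to 2937 without 1 RVM CFA library. In region fits, leaving out thalamus libraries 1 together is the same as leaving out 1 and was not run separately. The lowest member value, Syt2 in thalamus saline library 1, rested on 187 reads.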
